A study of Mus musculus with 24 samples.

Results

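Neurotrophins are secreted growth factors that keep neurons alive during development and adjust synapses in the adult brain. BDNF, the product of Bdnf, and NT-3, the product of Ntf3, act on receptor tyrosine kinases, TrkB (Ntrk2) for BDNF and TrkC (Ntrk3) for NT-3, while the p75 receptor (Ngfr) binds all neurotrophins and, together with the sorting receptor sortilin (Sort1), their uncleaved precursors. Ntrk2 and Ntrk3 also make truncated receptors without the kinase domain, and truncated TrkB is the main form in astrocytes. BDNF signalling through TrkB in hippocampus and amygdala is a textbook requirement for lasting fear memory.

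These 6 genes were followed across 24 Affymetrix arrays of total RNA from the brains of male mice. Amygdala and hippocampus were each taken from line 24, labelled low freezing, and line 25, labelled high freezing, with 6 arrays for each line and tissue. Per the series title the mice come from selection for contextual fear conditioning, in which freezing in a chamber previously paired with shock is the measure of fear. The labels name no treatment, age or genotype, each line is represented by a single breeding line, and nothing says whether RNA was pooled or whether arrays are separate animals, so p-values measure the spread between these arrays, which may be technical. In whole tissue, fewer cells of a type and less RNA per cell cannot be told apart.

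Members were all probe sets, groups of probes that read 1 transcript or part of it, whose only symbol in the platform annotation was one of the 6 genes. They covered 5 of the 6 genes, of 18193 genes named on the array, and numbered 24 among 45037 probe sets tested: 2 for Bdnf, 8 for Ntrk2, 8 for Ntrk3, 3 for Ngfr and 3 for Sort1. The annotation used here gave 0 probe sets for Ntf3, so NT-3 itself was not measured here. The annotation does not say which Ntrk2 or Ntrk3 probe set reads the kinase form and which the truncated form, so every probe set was kept apart and none was assigned to a form. Signals are the deposited linear values, differences are on the scale log2(signal + 16), which understates changes of dim probe sets, and a call is a Benjamini-Hochberg adjusted p under 0.05 over all probe sets tested.

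Promoter sequence is shown for Bdnf and Ntrk2, the ligand and receptor pair whose brightest probe sets had tissue differences of opposite sign. RefSeq (GRCm38.p6) gave 7 start sites for Bdnf and 1 for Ntrk2, and the 250 bases before each start were searched on both strands for the cyclic AMP response element TGACGTCA and for its core TGACG, which lies within it. The core was in 1 of the 7 Bdnf windows and the full element in 0, against 17.8% and 1.55% of 32851 such windows of all genes. The Bdnf window with the core is printed first, on the plus strand at chr2:109692186-109692435, with the core, read on the opposite strand, in capitals. The Ntrk2 window lies on the plus strand at chr13:58806319-58806568 and held neither motif, so it has no capitals. Both Bdnf probe sets carry the suffix of sets that read several transcripts of a gene, so the arrays do not separate the start sites.
Bdnf: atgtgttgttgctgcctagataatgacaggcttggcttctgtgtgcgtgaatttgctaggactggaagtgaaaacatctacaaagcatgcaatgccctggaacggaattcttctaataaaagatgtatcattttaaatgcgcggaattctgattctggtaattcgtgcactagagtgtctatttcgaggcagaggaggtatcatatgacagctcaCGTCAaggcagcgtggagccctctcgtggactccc
Ntrk2: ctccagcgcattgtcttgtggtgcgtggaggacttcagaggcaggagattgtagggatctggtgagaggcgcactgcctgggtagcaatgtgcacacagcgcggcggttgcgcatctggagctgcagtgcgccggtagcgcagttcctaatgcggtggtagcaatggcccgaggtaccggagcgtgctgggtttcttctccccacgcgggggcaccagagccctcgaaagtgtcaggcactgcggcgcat

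Across tissues, Bdnf and Sort1 were higher in hippocampus on every probe set, and Ntrk2 was higher in amygdala on 5 of 8. Ntrk3 was higher in hippocampus on 3 of 8, of which 1433825_at lost its call when some single arrays were left out. Ngfr had low signals with no call. In all, 13 of the 24 probe sets were called between amygdala and hippocampus, 5 higher in amygdala and 8 higher in hippocampus. Over all probe sets tested, 25.8% were called, 12.9% in each direction. For 5 of the 24 the arrays of the tissues did not overlap, which held for 4.91% of all probe sets. Between the freezing lines, 0 of the 24 were called in either tissue.

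One array measure separated the tissues. On the 18S ribosomal RNA 5' control, signals of 295 to 1525 in amygdala faced 3600.0 to 7093 in hippocampus, so a tissue effect and an effect of RNA handling cannot be told apart. Array medians and actin 5' to 3' ratios overlapped between tissues. Amygdala arrays 7 and 8 of the high line had the lowest actin ratios, 0.301 and 0.339, where all other arrays lay between 0.497 and 0.630. Hippocampus array 7 of the high line had the highest median, 55.6, where the others lay between 43.3 and 51.0. Results whose call changes without these 3 arrays, which an earlier analysis of these data had marked, are named. The hippocampus label was borne out by dentate granule cell markers, 8 of 8 called higher in hippocampus (median difference -2.08). Of 9 markers of hippocampal CA field neurons, 6 were called higher in hippocampus and 3 in amygdala (-0.51). Striatal neuron markers, 7 of 7, were called higher in the amygdala samples (1.89). They tell the tissues apart but do not identify amygdala, and which cells they come from was not tested.

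**Figure D1:**
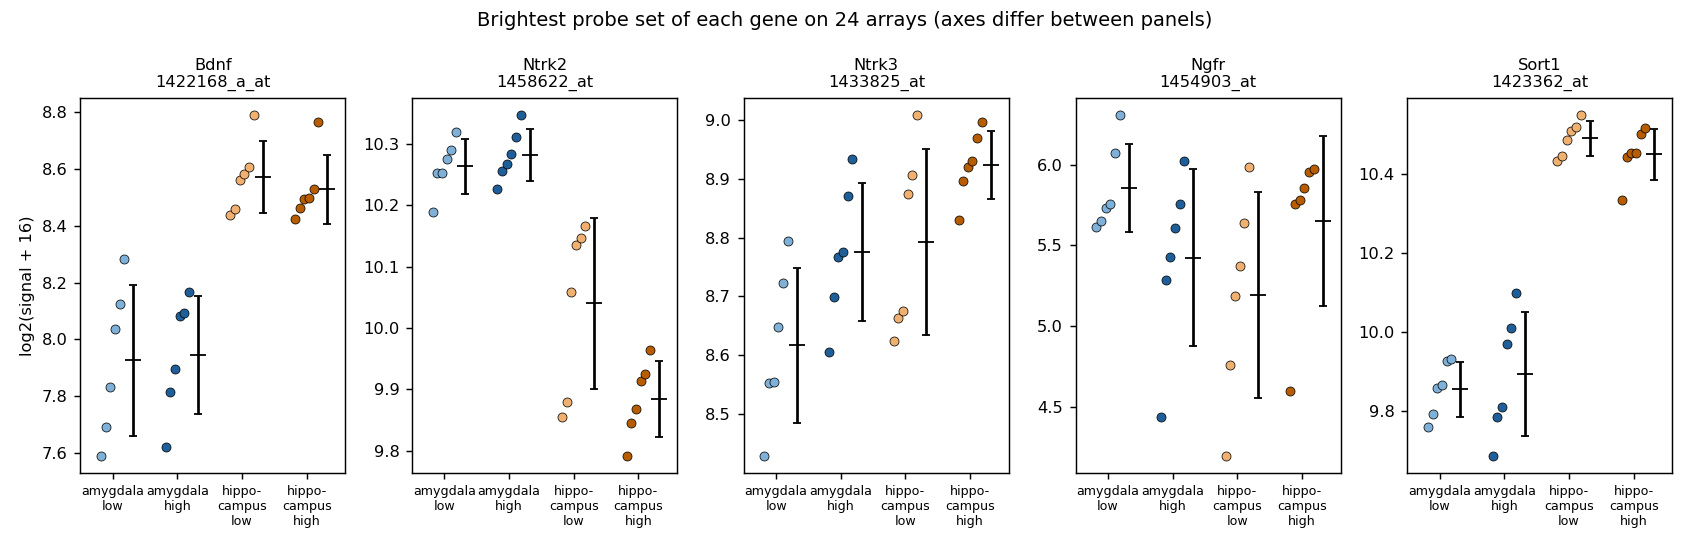
Each panel plots the brightest probe set of 1 gene on the scale log2(signal + 16) for the 4 groups of 6 arrays. Points are arrays, ordered by value within a group, and the bar beside them is the mean with SD. Hippocampus lies above amygdala without overlap for Bdnf and Sort1 and below it without overlap for Ntrk2, while the lines of a tissue overlap in every panel.

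Bdnf, the ligand of TrkB, was about 1.5-fold higher in hippocampus. On probe set 1422168_a_at the signal ran from 177 to 295 (median 229) in amygdala of the low line and from 181 to 271 (239) in amygdala of the high line. In hippocampus it ran from 331 to 427 (364) in the low line and from 328 to 419 (345) in the high line. The highest amygdala array stayed below the lowest hippocampus array, and the lines overlapped within each tissue. The mean log2 signal was 7.94 ± 0.23 in amygdala and 8.55 ± 0.12 in hippocampus (SD, n = 12 arrays), a difference of -0.61 (SE 0.08, adjusted p = 1.53e-06).

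The dimmer Bdnf probe set, 1422169_a_at, gave nearly the same difference. Its signal ran from 86.1 to 119 (median 101) in amygdala and from 136 to 211 (161) in hippocampus, again without overlap. The difference was -0.62 (SE 0.07, 1.54-fold, adjusted p = 9.18e-08). It was called in both lines, at -0.63 in the low line and -0.61 in the high line, as was that of 1422168_a_at, at -0.65 and -0.58.

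The Ntrk2 probe sets fell into bright ones that were higher in amygdala and dim ones that were not called. On 1458622_at, the brightest, the signal ran from 1152 to 1262 (median 1214) in amygdala of the low line and from 1182 to 1287 (1223) in amygdala of the high line. In hippocampus it ran from 909 to 1133 (1079) in the low line and from 870.3 to 983 (933) in the high line. All 12 amygdala arrays lay above all 12 hippocampus arrays. The difference was 0.31 (SE 0.04, 1.24-fold, adjusted p = 6.48e-06).

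The widest gap of an Ntrk2 probe set was on 1437560_at. Its signal ran from 643 to 825 (median 699) in amygdala of the low line and from 689 to 794 (740.4) in the high line, against 419 to 576 (506) in hippocampus of the low line and 376 to 498 (455) in that of the high line. The tissues did not overlap here either. The difference was 0.61 (SE 0.06, 1.53-fold, adjusted p = 5.39e-08). The other called sets had smaller differences with overlapping tissues: 1435196_at at 0.32 (SE 0.06), 1435305_at at 0.26 (SE 0.06) and 1420838_at at 0.20 (SE 0.04), with adjusted p of 2.42e-04, 0.00307 and 0.00145.

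The remaining Ntrk2 probe sets were dimmer. On 1420837_at, which the annotation lists under the same source sequence as the bright 1420838_at, the signal ran from 48.4 to 93.2 in amygdala and from 56.0 to 110.1 in hippocampus, and the difference was -0.24 (SE 0.10, adjusted p = 0.0844). Leaving out amygdala low array 2, amygdala high array 10 or hippocampus high array 8 brought it under the threshold, the lowest adjusted p being 0.0397. Set 1446712_at was at -0.18 (95% interval -0.38 to 0.02). Set 1444121_at was at 0.02 (-0.25 to 0.28), with a signal below the array median on all 24 arrays.

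The bright Ntrk2 probe sets 1458622_at and 1437560_at did not share 1 tissue difference. For each gene, every probe set was set against the brightest of that gene within each array, and the resulting 19 contrasts, chosen after the values were seen, were compared between tissues by a two-sided permutation test with 100000 resamples. Relative to 1458622_at, 1437560_at stood at -0.74 ± 0.10 in amygdala and -1.05 ± 0.17 in hippocampus (SD, n = 12), so it was higher by 0.30 in amygdala (permutation p adjusted over the 19 = 5.70e-04). On the same measure 1420837_at (-0.55, adjusted permutation p = 0.00538) and 1446712_at (-0.49, 0.00133) were lower in amygdala. Both of these sets are dim, and how far low signal shapes their contrasts was not tested. For 1435196_at the contrast was 0.01 (adjusted permutation p = 0.936).

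Astrocyte markers were called in both directions between tissues, and their part in the Ntrk2 result was not tested. Of 12 markers, 3 were called with amygdala higher and 6 with hippocampus higher (median difference -0.17). Fgfr3, a growth factor receptor of astrocytes, was at 0.37, and Aldh1l1, a folate enzyme used as an astrocyte marker, at 0.28. Gfap, the astrocyte filament protein, was at -1.16. The summed signal of the 12 markers ran from 18022 to 20619 in amygdala and from 20454 to 22913 in hippocampus, with 0 of them below the array median on all arrays of a group.

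Ntrk3, the TrkC gene, was higher in hippocampus on the probe sets 1422329_a_at and 1455917_at and nearly level on its brightest. On 1422329_a_at the signal ran from 77.2 to 111 (median 87.6) in amygdala of the low line and from 61.6 to 91.3 (69.5) in amygdala of the high line. In hippocampus it ran from 97.6 to 179 (146) in the low line and from 92.5 to 131 (105) in the high line. Of the 12 amygdala arrays, 10 lay below every hippocampus array. The difference was -0.52 (SE 0.08, 1.44-fold, adjusted p = 3.45e-05), at -0.53 within the low line and -0.51 within the high line.

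On 1455917_at the hippocampus of the low line stood highest, with a signal of 119.8 to 247 (median 193). The hippocampus of the high line read 79.5 to 167 (124), and amygdala read 57.5 to 130.1 (91.1) in mice of the low line and 58.9 to 129 (88.8) in mice of the high line. The difference averaged over lines was -0.66 (SE 0.14, 1.58-fold, adjusted p = 6.47e-04). It was called in the low line (-0.92, SE 0.19, adjusted p = 0.00153) and not in the high line (-0.41, SE 0.19, adjusted p = 0.146), and the test of that inequality did not pass (0.51, SE 0.27, adjusted p = 0.727).

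The brightest Ntrk3 probe set, 1433825_at, read 329 to 473 (median 403) in amygdala and 379 to 499 (462) in hippocampus, with overlap. Its difference of -0.16 (SE 0.06, adjusted p = 0.0348) was called, but the call was lost with each array centred on its median (adjusted p = 0.0903). It was also lost on leaving out amygdala low array 1, 2 or 5, amygdala high array 11 or 12, hippocampus low array 1, 4 or 5, or hippocampus high array 8 or 10, with adjusted p up to 0.0653. Of the other 5 sets none was called, with differences from -0.11 to 0.32. Among them 1443970_at (0.32, 95% interval 0.03 to 0.60) and 1426003_at (0.08, -0.27 to 0.43) read below the array median on all 24 arrays.

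Ngfr, the p75 receptor gene, had low signals in both tissues. Sets 1421241_at and 1450177_at read at most 15.1 and 23.4 and were below the array median on all 24 arrays. On the brightest, 1454903_at, below the array median on 20 of 24, the signal ran from 33.0 to 63.1 (median 37.6) in amygdala of the low line and from 5.73 to 49.0 (29.9) in the high line. In hippocampus it ran from 2.40 to 47.2 (23.0) for the low line and from 8.23 to 46.7 (40.4) for the high line. All 4 groups overlapped, and the tissue difference was 0.22 (95% interval -0.19 to 0.63, adjusted p = 0.467). Of 6 markers of basal forebrain cholinergic neurons, which carry p75 protein, amygdala was higher on 3 called ones: Isl1 (1.94), Lhx8 (1.46) and Gbx1 (0.47), all developmental transcription factors. Chat, the acetylcholine synthesis enzyme, was at 0.19 and Slc5a7, the choline transporter, at -0.06, neither called. The 6 markers were dim. In amygdala 3 of them read below the array median on all arrays of the low line and 4 on those of the high line. In hippocampus 4 did so in the low line and 5 in the high line. Their summed signal had a median of 224 (low line) and 168 (high line) in amygdala and 75.2 and 74.5 in hippocampus. Which cells it comes from was not tested.

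Sort1, the gene of sortilin, had the lowest p of the 24 probe sets. On 1423362_at the signal ran from 850.0 to 961 (median 913) in amygdala of the low line and from 808 to 1080.1 (934) in amygdala of the high line. In hippocampus it ran from 1366 to 1482 (1429) in the low line and from 1273 to 1448 (1386) in the high line. The highest amygdala array stayed below the lowest hippocampus array, while the lines overlapped. The mean log2 signal was 9.87 ± 0.12 in amygdala and 10.47 ± 0.06 in hippocampus (SD, n = 12), a difference of -0.60 (SE 0.05, 1.51-fold, adjusted p = 6.48e-10).

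The other Sort1 probe sets, listed under the same source sequence, pointed the same way. On 1450955_s_at, whose suffix marks sets that can read transcripts of more than 1 gene, 10 of the 12 amygdala arrays lay below every hippocampus array, and the difference was -0.56 (SE 0.09, adjusted p = 6.10e-05). On 1423363_at the tissues overlapped and the difference was -0.33 (SE 0.09, adjusted p = 0.00984). The last was called in the low line (-0.47, adjusted p = 0.0164) and not in the high line (-0.19, adjusted p = 0.345), with no call for the inequality (0.28, SE 0.18, adjusted p = 0.776).

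**Figure D2:**
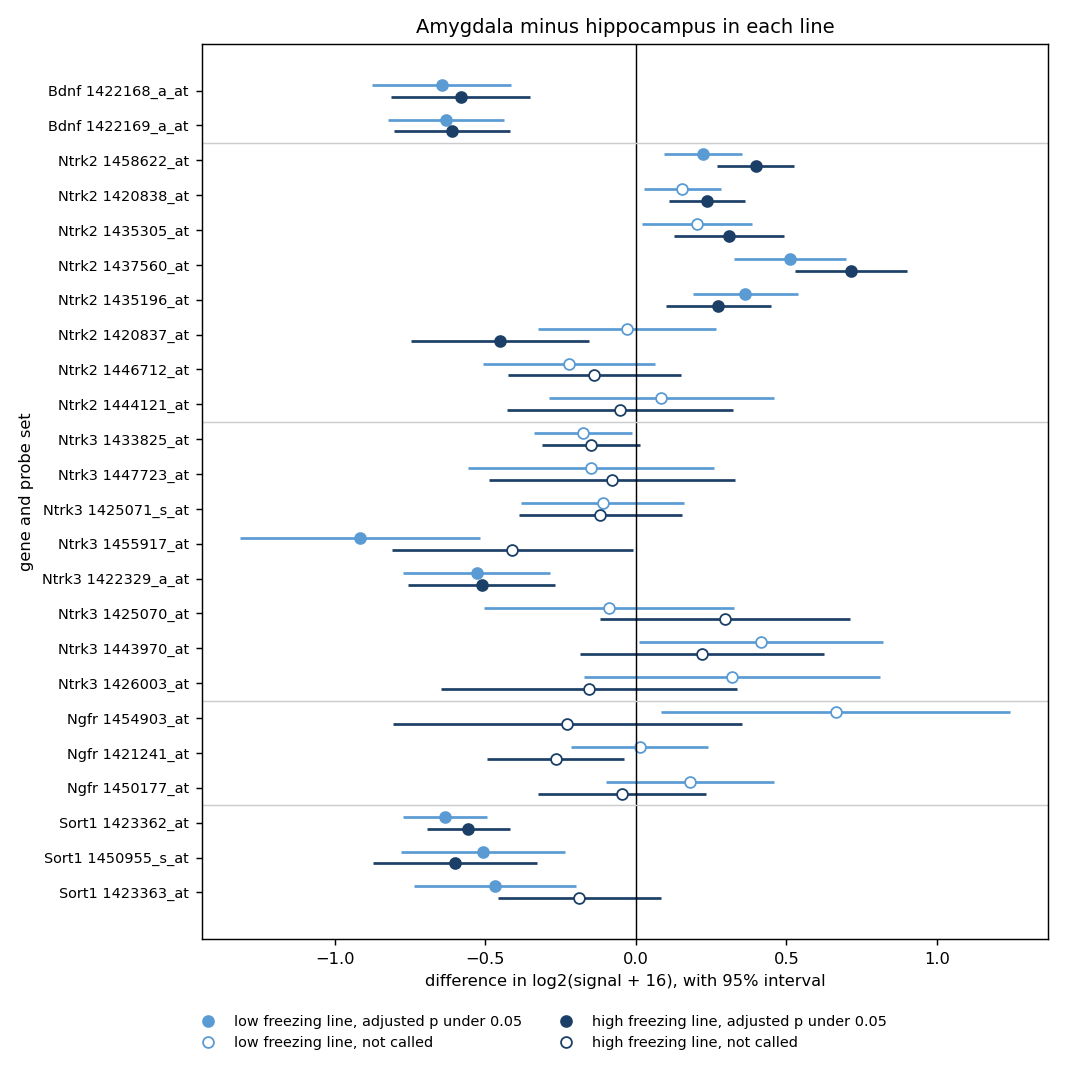
Points give the difference amygdala minus hippocampus in log2(signal + 16) for the 24 probe sets, separately in the low and the high freezing line, with lines for the 95% interval. Filled points passed an adjusted p under 0.05. Both Bdnf sets and the brightest Sort1 set lie between -0.65 and -0.56 in both lines, and the 5 brightest Ntrk2 sets lie between 0.15 and 0.71.

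The tissue comparison was also made within each line, on arrays that the other line does not share, though with 1 estimate of the spread. In the low line 10 of the 24 probe sets were called, against 13.5% of all, and in the high line 11, against 19.1%. Called with the same sign in both were 8 of the 24, against 9.93% of all. These were the 2 of Bdnf, 1458622_at, 1437560_at and 1435196_at of Ntrk2, 1422329_a_at of Ntrk3, and 1423362_at and 1450955_s_at of Sort1. The call of 1458622_at in the low line (0.22, adjusted p = 0.0161) was lost with each array centred on its median (0.19, 0.132). That of 1435196_at in the high line (0.27, adjusted p = 0.0249) was lost without amygdala array 7 or 8, without hippocampus array 7 or 8 (adjusted p up to 0.0716), and without amygdala arrays 7 and 8 and hippocampus array 7 together (0.11, 0.363). Leaving out those 3 arrays also ended the high line call of 1435305_at (0.31, adjusted p = 0.0147, against 0.27, 0.105). Without a call in the low line, 1420837_at of Ntrk2 was called higher in hippocampus in the high line (-0.45, SE 0.14, adjusted p = 0.0286). That call was lost without array 7, 9, 11 or 12 in amygdala or array 7 or 11 in hippocampus (adjusted p up to 0.0654), and without the 3 arrays together (-0.43).

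The question that the selection poses is whether neurotrophin genes differ between the low and the high freezing line. In amygdala 0 of 24 probe sets were called by limma, where 0.00222% of all were. The arrays of the lines failed to overlap for 0 of the 24 there, where 0.402% of all did, and 2 had an unadjusted p under 0.05, where 6.54% of all had. In hippocampus 0 of 24 were called, where 0.0222% of all were, and 5 had an unadjusted p under 0.05, where 8.97% of all had. The line differences ran from -0.43 to 0.25 in amygdala and from -0.53 to 0.46 in hippocampus. The median over the 24 was -0.03 and -0.04, beside -0.01 and 0.02 over all probe sets tested. In hippocampus the 18S control also separated the lines, with 5859 to 7093 for low and 3600.0 to 5799.9 for high freezing, so line and RNA handling there cannot be told apart.

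The line difference, high minus low, is given first for the brightest probe sets of Bdnf and Sort1. In hippocampus 1422168_a_at of Bdnf was at -0.04 (95% interval -0.23 to 0.14) and 1423362_at of Sort1 at -0.04 (-0.17 to 0.09). In amygdala they were at 0.02 (-0.27 to 0.31) and 0.04 (-0.14 to 0.22). Differences as large as the tissue differences of these 2 sets lie outside these intervals. That does not hold for every probe set, and examples follow. On 1423363_at, the dimmest Sort1 set, the hippocampus interval ran from -0.61 to -0.01, beside a tissue difference of -0.33. On 1455917_at of Ntrk3 it ran from -0.95 to -0.12, beside -0.66, and on 1422329_a_at of Ntrk3 from -0.60 to -0.02, beside -0.52. In amygdala the interval of 1435305_at of Ntrk2 ran from 0.06 to 0.44, beside 0.26. For 2 other bright Ntrk2 sets the hippocampus interval also reached the size of the tissue difference. It ran from 0.06 to 0.36 on 1435196_at, beside 0.32, and from -0.32 to 0.01 on 1458622_at, beside 0.31.

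Of the 2 unadjusted p values under 0.05 in amygdala and the 5 in hippocampus, all but 1 were on Ntrk2 and Ntrk3, which hold 8 of the 24 probe sets each. On 1435196_at of Ntrk2 the hippocampus of the low line read 399 to 443 (median 430.0) and that of the high line 449 to 538 (493), so the lines did not overlap. This was 1 of the 24 probe sets in hippocampus without overlap, and over all probe sets the share was 0.637%. Its difference was 0.21 (SE 0.07, adjusted p = 0.438). The dim 1420837_at was at 0.32 (SE 0.13, adjusted p = 0.526), while the brightest Ntrk2 set, 1458622_at, was at -0.16 (SE 0.08, adjusted p = 0.596). In amygdala 1435305_at was at 0.25 (SE 0.09, adjusted p = 0.662), with 644 to 917 for the low line and 839 to 973 for the high line.

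For Ntrk3, 1422329_a_at was lower in the high line by a like amount in both tissues, -0.29 in amygdala (SE 0.10, adjusted p = 0.637) and -0.31 in hippocampus (SE 0.13, adjusted p = 0.534), without passing in either. On 1455917_at the hippocampus difference was -0.53 (SE 0.19, adjusted p = 0.459) and the amygdala difference -0.03. The brightest set, 1433825_at, had the opposite sign, 0.16 in amygdala (95% interval -0.02 to 0.34) and 0.13 in hippocampus. For Sort1, 1423363_at was at -0.31 in hippocampus (SE 0.14, adjusted p = 0.550).

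Whether the line difference itself changed between tissues was tested across all 24 arrays. By limma 0 of the 24 probe sets were called, as were 0% of all, and 2 had an unadjusted p under 0.05, where 7.08% of all had. Those were 1454903_at of Ngfr (-0.43 in amygdala, 0.46 in hippocampus, inequality -0.89, SE 0.40, adjusted p = 0.679) and 1420837_at of Ntrk2 (inequality -0.42, SE 0.20, adjusted p = 0.704). The Ngfr set was below the array median on 20 of 24 arrays, and with single arrays left out its line difference ran from -0.55 to -0.23 in amygdala and from 0.26 to 0.67 in hippocampus.

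**Figure D3:**
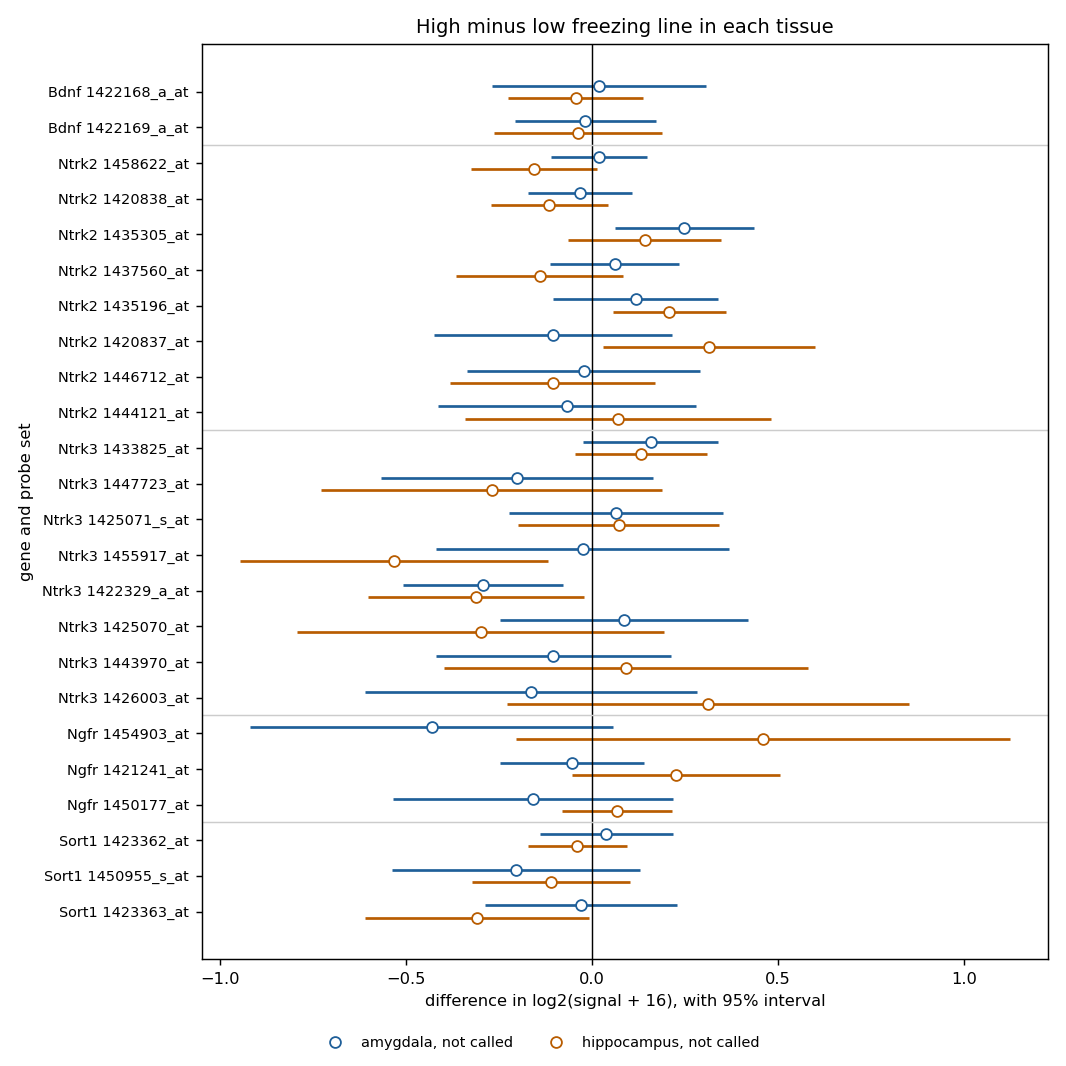
Points give the difference high minus low freezing line in log2(signal + 16) for the 24 probe sets in amygdala and in hippocampus, with lines for the 95% interval. All points are open because no adjusted p was under 0.05. The differences lie between -0.53 and 0.46, with the widest intervals for the brightest Ngfr set.

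Other genes of the pathway were taken from lists, each gene read by its brightest probe set. Of 107 listed genes, 90 had a probe set with a single symbol. Between tissues 24 of the 90 were called with amygdala higher and 18 with hippocampus higher, together 46.7%, beside 30.1% of all 18193 named genes. Between lines 0 of the 90 were called in either tissue by limma, with lowest adjusted p of 0.744 in amygdala and 0.460 in hippocampus. Of the 18193 genes 0% were called in amygdala and 0.0165% in hippocampus.

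Relatives of sortilin were all called between tissues, and not in 1 direction. Sorcs1, which encodes another receptor of the sortilin family, was 3.46-fold higher in amygdala (adjusted p = 2.73e-14), Sorcs2 1.29-fold and Sorcs3 1.22-fold. Sorl1, the gene of the sorting receptor SORLA, was 1.82-fold higher in hippocampus (adjusted p = 5.94e-12), the direction of Sort1. Ntf5, which encodes NT-4, the other TrkB ligand, was at 0.07 between tissues, with a mean log2 signal of 4.77 over the 24 arrays and no call.

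Among 11 genes of precursor processing and sorting, 2 were called with amygdala higher and 2 with hippocampus higher (median -0.07). Hap1, the huntingtin-associated protein, which carries proBDNF along axons, was 2.76-fold higher in amygdala, and Pcsk1, a prohormone convertase, 1.33-fold. Cpe, carboxypeptidase E, a sorting receptor for proBDNF, was 1.19-fold higher in hippocampus and Pcsk5 1.16-fold. Among 12 partners of p75, 5 were called higher in amygdala and 2 lower (median 0.19). The 4 of lowest p were all higher in amygdala. Of these Magel2 (2.42-fold), Ndn (necdin, 1.44-fold) and Maged1 (1.19-fold) belong to the MAGE family, and Bex3 (1.38-fold) encodes an adaptor that binds p75.

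Of 22 Trk adaptors and regulators, 5 were called in each direction (median 0.06). Higher in hippocampus were Nedd4l, a ubiquitin ligase (1.21-fold), Slitrk5, a membrane protein that binds TrkB (1.31-fold), and the phosphatase gene Ptpn11 (1.14-fold). Plcg1, the phospholipase that docks on activated Trk, was 1.18-fold higher in amygdala. Of 22 kinase cascade genes, 5 were called with amygdala higher and 3 with hippocampus higher (median 0.07). Camk4, a nuclear calmodulin kinase (1.73-fold), Rps6ka5, a CREB kinase (1.45-fold), and Pik3r1, a regulatory PI3-kinase subunit (1.28-fold), were higher in amygdala, and the small GTPase gene Rap1a in hippocampus (1.33-fold).

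Genes that BDNF is known to induce did not follow the tissue difference of Bdnf as a list. Of 18, 4 were called with amygdala higher and 5 with hippocampus higher (median -0.04). The neuropeptide precursors Tac1 (3.55-fold), Npy (1.86-fold) and Vgf (1.71-fold) were higher in amygdala. Dusp4, a MAP kinase phosphatase, was 2.14-fold higher in hippocampus. The other called genes were Arc (3.04-fold), Dusp6 (1.69-fold), Nr4a1 (1.45-fold) and Homer1 (1.13-fold), higher in hippocampus, and Fosb (1.33-fold), higher in amygdala. Tac1 is also in the striatal and Npy in the interneuron marker list, of which 7 of 7 and 6 of 9 members were called higher in amygdala. The part of these cell types in the result was not tested.

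**Figure D4:**
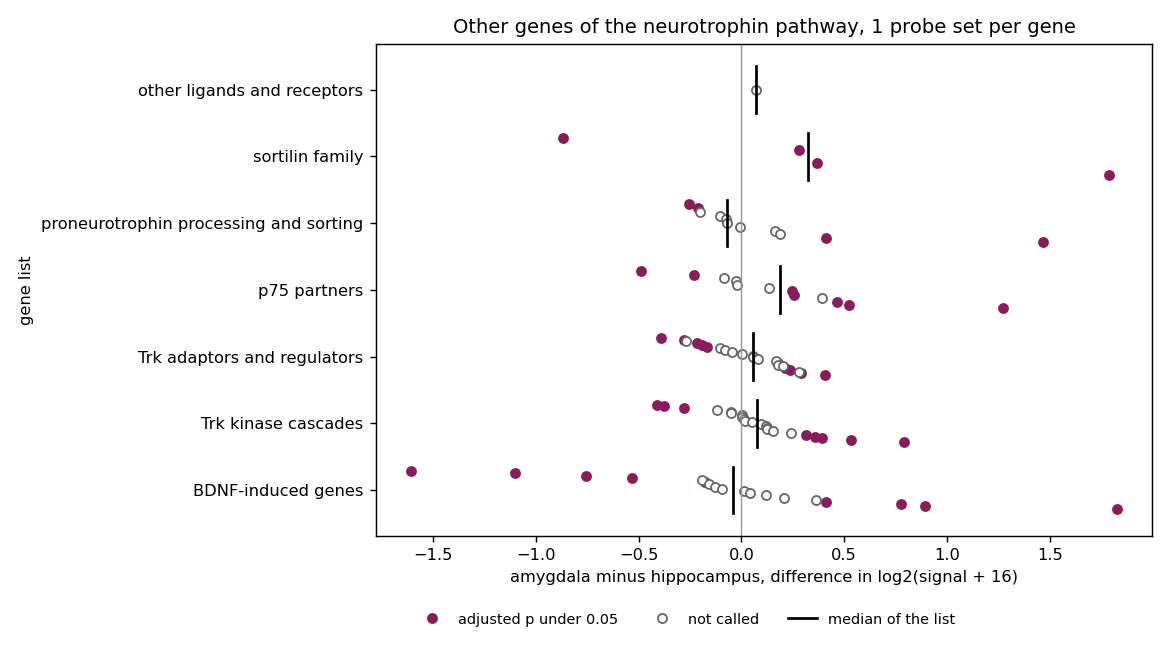
Each point is the difference amygdala minus hippocampus in log2(signal + 16) of 1 gene, by list, read by its brightest probe set. Filled points passed an adjusted p under 0.05 and vertical strokes mark the list medians, which lie between -0.07 and 0.32. Sorcs1 and Tac1 lie farthest to the right, at 1.79 and 1.83, and Arc farthest to the left, at -1.61.

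The genes whose signals were most like those of the brightest member probe sets were found by Pearson correlation over the 24 arrays among about 8074 genes with a mean log2 signal of at least 7. The arrays share tissue, line and scaling, so the coefficients are descriptions. For Sort1 these were Cabp7 (r = 0.99), Wasf1 (0.98) and Wipf3 (0.97), and for Bdnf Nrn1 (0.92), Rasl10a (0.91) and Thrsp (0.91). For Ntrk2 they were Hdac2 (0.92), Snhg8 (0.90) and Sst (0.90). Ntrk3 and Ngfr had lower coefficients, led by Edem1 (0.77) and Nup93 (0.69). With the 4 group means subtracted, the leading gene was Atg9a for Sort1 (0.87), Maip1 for Ntrk2 (0.75), Kri1 for Bdnf (0.73), Pikfyve for Ngfr (0.73) and Cnot7 for Ntrk3 (0.69). Nrn1, the neuritin gene, which BDNF induces, stayed among the 3 closest to Bdnf (0.68), and Cabp7 among the 3 closest to Sort1 (0.86). All of these are the highest coefficients among about 8074 genes, and none was tested.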

How the data were processed

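The authors deposited 1 linear intensity per probe set and array. How these signals were computed, by which software, is not given in the sources used here. The deposited values show that every array was scaled to a mean of 150.0 once 2% of probe sets were trimmed at each end. Of 45101 probe sets, 64 controls were left out; 34945 had 1 symbol, 932 several and 9160 none, with symbols outside the member list updated through Entrez identifiers. Groups came from the descriptions and array numbers from the titles.

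Values were tested as log2(signal + 16) with limma 3.58.1 in R 4.3.3: the lines within each tissue's 12 arrays, the tissue contrasts and the interaction of line and tissue in a fit of 4 group means over 24 arrays. The fits were tested on simulated arrays. Precision is limited by the number of arrays.

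The members, lists and tests were chosen with earlier results of these data known. All member probe sets are described. Up to 4 called genes per list are named by lowest p, or 2 as values where none was called. For the BDNF-induced genes every called gene between tissues is named. Beside them stand 3 genes of like pattern per member. Alternatives were pseudocounts of 1 and 64, leaving out the dimmest 40% of probe sets, quantile and median scaling, an intensity trend, array number as a block, and leaving out arrays. The planned contrast of receptor forms was not made, because no source used here tells which form a probe set reads.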

Additional observations from a re-analysis of the deposited data

Results flagged for a closer look

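Of 96 sets of 6 arrays (24 probe sets in 4 groups), 4 had an array far from the others, a gap to its neighbour that passed the 95% limit of Dixon's test, and chance alone marks about 1 in 20 such sets. The values are log2(signal + 16). For 1422168_a_at of Bdnf, hippocampus array 7 of the high line read 8.77, where the next array read 8.53 and the lowest 8.42. For 1454903_at of Ngfr, hippocampus array 11 of the high line read 4.60, where the other 5 lay between 5.75 and 5.97. For 1450177_at of Ngfr, amygdala array 3 of the low line read 5.30, where the others lay between 4.11 and 4.32, and hippocampus array 7 of the high line read 4.47, where the next read 4.28.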

How the results depend on the processing

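The count of 0 called member probe sets between lines held in both tissues under all 8 other settings and on leaving out each of the 12 arrays (0 to 0), as it did for the interaction of line and tissue over 24 arrays left out in turn. The count over all probe sets moved widely between lines, from 0 to 6 in amygdala (1 as reported) and from 0 to 57 in hippocampus (10 as reported). For the tissues the member count, 13, ran from 12 to 13 under other settings and from 12 to 14 with single arrays left out, in the low line from 9 to 11 and 10 to 10, and in the high line from 8 to 11 and 9 to 11. Of 187 recomputed tissue differences 0 were reversed, 3 lost their call, all of 1433825_at of Ntrk3, and 1 gained a call, 1443970_at of Ntrk3 without amygdala arrays 7 and 8 and hippocampus array 7 (0.43, adjusted p = 0.0340). Of the 187 line differences in each tissue, 8 in amygdala and 3 in hippocampus changed sign without being called in any setting. In the high line 1435305_at of Ntrk2 lost its call without the same 3 arrays (adjusted p = 0.105), as did 1420837_at, which also lost it with median centring (0.0520). Median centring moved the share of all calls in the high line that were higher in amygdala from 47.5% to 60.4%. In the low line 1420838_at of Ntrk2 gained a call without the dimmest 40% of probe sets (0.0486) and with an intensity trend (0.0400). Leaving out hippocampus array 11 called 1421241_at of Ngfr in the high line (0.0440).

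Arrays of both tissues carry the same numbers, but same-numbered arrays did not deviate together (correlations of -0.05 to 0.05, and 1 of 12 correlated best with its own number), so the numbers were not used as pairs. Whether equal numbers stand for 1 animal is not known. With the replicate block 12 of the 24 were called between tissues, 10 within the low line, 10 within the high line, and 0 for the interaction. Of the 19 contrasts between probe sets of a gene, 4 passed, 5 with a pseudocount of 1 and 6 with a pseudocount of 64, settings chosen after seeing the data. The passing contrast of 1443970_at with 1433825_at of Ntrk3, a set below the array median on all 24 arrays, ran from 0.27 with 64 to 0.89 with 1 and is not read as a difference. Dim probe sets, below the array median on all 24 arrays, limit what can be said of Ngfr.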

Other observations

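Probe sets of the same receptor gene did not always move together across the 24 arrays once group means were subtracted. Over all pairs of Ntrk3 sets the coefficients ran from -0.63 (1425071_s_at and 1455917_at) to 0.56 (1447723_at and 1455917_at). For Ntrk2 they ran from -0.53 (1458622_at and 1420837_at) to 0.61 (1435305_at and 1446712_at). These are the extremes of many pairs and were not tested. The pair 1450955_s_at and 1423363_at of Sort1 correlated at 0.62, while the bright 1423362_at correlated with them at -0.17 and -0.28. For Bdnf the coefficient was 0.39.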
